A study of Mus musculus with 18 samples.

Results

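MicroRNA precursor genes with detectable reads are described here across mouse haematopoietic progenitor lines in which Ddx41, a DEAD-box RNA helicase gene, could be deleted. Members were selected on their measured counts: a symbol made of Mir and a number, with at least 5 counts in at least 3 of 18 libraries. This left 74 members of 1102 microRNA symbols in a table of 24062 symbols, while 410 microRNA symbols had at least 1 count and 692 had none. The 74 members held 95.6% of all counts on microRNA symbols, so their abundance is what chose them and is given only as a description.

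The lines were derived from bone marrow progenitors by retroviral transfer of MLL-AF9, a leukaemia fusion gene, and all carry a tamoxifen-activated Cre from the Rosa locus. WT cells (+/+) have no floxed Ddx41 allele, Het cells carry 1 (+/flox, labelled +/- after induction) and FF cells carry 2 (flox/flox, labelled -/- after induction). Each was given 1 µM 4-hydroxytamoxifen (4OHT) or ethanol for 48 h, with 3 libraries per group, lettered A to C. The labels do not say how many lines stand behind a genotype or whether the letters are separate cultures, so genotype and line cannot be told apart, and the p-values cover the spread of libraries that may be technical repeats. WT cells given 4OHT carry the same drug and Cre activity without a floxed allele.

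A microRNA is cut from a longer transcript: Drosha with Dgcr8 releases a hairpin in the nucleus, Xpo5 exports it, Dicer1 trims it and an Argonaute protein takes up a strand. The seed, bases 2 to 8 of that mature strand, pairs with target messenger RNAs. Many hairpins lie in introns of protein-coding genes and some overlap small nucleolar RNAs (snoRNAs), which guide modification of ribosomal RNA, or the related small Cajal body RNAs (scaRNAs). Total RNA was extracted, and a count on such a symbol is a read over the precursor's interval: it may come from the primary transcript, from a host transcript or from an overlapping small RNA, and it is not a measure of mature microRNA.

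RefSeq (GRCm38.p6) gave sequences for 64 of the 74 members. The mature strands of the members on which the FF results turn are shown 5′ to 3′ with the seed in capitals, because they differ in seed and so are not copies of a single family.
miR-6913-5p (Mir6913): uGGGAGACcagucagguguugg
miR-1291 (Mir1291): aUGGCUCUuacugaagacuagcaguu
miR-7a-5p (Mir7-1): uGGAAGACuagugauuuuguugu
miR-1894-5p (Mir1894): cUCUCCCCuaccaccugccucu
miR-6516-5p (Mir6516): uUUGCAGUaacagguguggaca
miR-6924-5p (Mir6924): aGAGGAUGgggauuuggcgaagu
miR-1947-5p (Mir1947): aGGACGAGcuagcugagugcug
Among the members' mature strands available from RefSeq, only miR-2861 and miR-3091-3p had the same seed, GGGCCUG, and their genes lie apart on chromosome 2. Members without such a strand, for example Mir1949 and Mir3960, were not compared.
miR-2861 (Mir2861): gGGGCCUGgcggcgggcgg
miR-3091-3p (Mir3091): cGGGCCUGaccagucucaagac

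For 3 members the whole hairpin shows what the reads can come from. In Mir7-1 the capitals mark both mature arms. In Mir1291 and Mir6516 they mark the bases that GENCODE M21 (GRCm38) also assigns to another small RNA, the H/ACA snoRNA Snora34 for 92 of 117 bases and the scaRNA Gm26083 for 88 of 110 bases.
Mir7-1, chr13:58392779-58392886, minus strand: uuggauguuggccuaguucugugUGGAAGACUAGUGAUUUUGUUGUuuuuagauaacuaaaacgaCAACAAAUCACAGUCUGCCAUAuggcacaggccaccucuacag
Mir1291, chr15:98519762-98519878, minus strand: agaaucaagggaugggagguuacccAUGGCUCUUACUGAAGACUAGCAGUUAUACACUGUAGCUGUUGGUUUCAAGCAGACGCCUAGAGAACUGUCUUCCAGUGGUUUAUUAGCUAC
Mir6516, chr11:117077348-117077457, plus strand: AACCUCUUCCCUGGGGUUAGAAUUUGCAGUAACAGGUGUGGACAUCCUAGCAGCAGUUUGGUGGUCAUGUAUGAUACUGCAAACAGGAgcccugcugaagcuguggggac
Reads of overlapping annotations such as these cannot be assigned to either RNA from gene counts, since the sources used here give neither the strand setting nor the treatment of overlapping features.

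The position of the members was not used to choose them. By GENCODE and RefSeq annotation, 33 of 74 (44.6%) overlapped an exon of another gene on the same strand, 27 (36.5%) lay in an intron on the same strand, 7 (9.46%) overlapped a snoRNA or scaRNA, 3 only a gene on the opposite strand and 2 no other gene, and 2 had no position. Among the other 1028 microRNA symbols the shares were 20.3% for same-strand exons, 47.3% for introns and 0.389% for snoRNAs, scaRNAs or ribosomal RNA. Of the 33 exon members, 7 met a coding exon, 6 an untranslated exon and 15 only an exon of a noncoding transcript model. Among those whose overlapping gene is in the count table, 5 shared less than 50% of the hairpin with the exon. Mir24-2 shared only 2 of 107 bases with an exon of the noncoding gene Gm26532, which has no counts there. The median hairpin GC content was 55.9% for 64 members and 51.7% for 826 other symbols, and the median hairpin length was 76 against 79 bases. Only 2 neighbouring pairs lay within 10 kb of each other: Mir2861 and Mir3960 over Cdk9, with 11 bases between them, and Mir25 and Mir93 over Mcm7, with 118.

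Library totals ran from 24730213 to 49277884, so that 1 count stood for 0.0193 to 0.0416 CPM (library-scaled counts by TMM). The median member had 113 counts over all 18 libraries, and 44 members were at 0 in at least 1 library. An axis was drawn from the mean of the other WT libraries (0) to the mean of the other FF libraries (1). On it the library labelled FF_EtOH C lay at 0.029, near the other WT libraries. The library labelled WT_4OHT C lay at 0.867, beside FF_EtOH A and B at 0.84 and 0.875. The Het libraries lay at 0.852 to 0.977, so the axis does not tell FF from Het cells. Results are therefore also given without FF_EtOH C and WT_4OHT C, called the 2 displaced libraries. Progenitor and myeloid genes such as Ptprc, Kit, Mpo and Elane were present in every library, Cd34 was at 0 to 4.93 CPM, and the erythroid and T-cell genes Hbb-bt, Hba-a1, Cd3e and Cd3g had no counts. Ddx41 in FF cells stood at 111.8, 82.0 and 73.7 CPM in ethanol and at 14.6, 16.5 and 17.7 CPM in 4OHT (log2 fold change -2.46 ± 0.17 SE, edgeR adjusted p = 8.09e-07).

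Deletion of both Ddx41 alleles was accompanied by higher counts of a small group of microRNA genes. edgeR's quasi-likelihood test, with Benjamini-Hochberg adjustment over 12859 genes and a threshold of 0.05, could be run on 39 members that passed a filter on low counts, and 35 were not tested. In FF cells given 4OHT, 8 of the 39 were higher and 0 lower, beside 5.16% of all tested genes higher and 8.29% lower. At an unadjusted p below 0.05, 12 members were higher and 0 lower, and DESeq2 also called 8 higher. The share over all genes was not computed at the unadjusted threshold or for DESeq2. These counts are a description, since a member with enough reads only in its high group enters the test through that group. Without the FF 4OHT libraries, 8 of the 39 would not have reached the filter, among them the called members Mir6913, Mir1291 and Mir1894. At 5 counts in 3 libraries, a milder filter, these 3 are kept also without the FF 4OHT libraries, and they were called there as well (edgeR adjusted p = 0.00278, 0.00322 and 0.0386). Without the 2 displaced libraries, 6 of 42 tested members were called higher, beside 578 of 13041 genes higher and 981 lower. Mir6516 (edgeR adjusted p = 0.108) and Mir1894 (adjusted p = 0.0529) were not called there. Without the library labelled FF_4OHT C, 2 were called, Mir1291 and Mir6913.

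Mir6913 lies in an intron of Dohh, which encodes the hydroxylase that completes the hypusine residue of a translation factor (chr10:81386347-81386412, plus strand). Its counts in FF cells were 1, 2 and 2 in ethanol and 13, 23 and 20 in 4OHT. The other 4 groups held 0 to 10 counts per library, so that every FF 4OHT library lay above all others. The mean level rose from 0.0626 ± 0.0190 to 0.698 ± 0.164 CPM (SD, n = 3; log2 fold change 3.39 ± 0.61 SE, edgeR adjusted p = 0.00226). Dohh itself stood at 54.3 ± 6.6 CPM in ethanol and 46.9 ± 0.6 CPM in 4OHT (edgeR log2 -0.21 ± 0.18, adjusted p = 0.484).

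Mir1291, inside an intron of Kansl2, a subunit gene of a histone acetyltransferase complex, had 0, 2 and 2 counts in ethanol and 12, 16 and 11 in 4OHT in FF cells. Its log2 fold change was 3.17 ± 0.60 (edgeR adjusted p = 0.00282), while Kansl2 showed 0.09 ± 0.11 (adjusted p = 0.682). Snora34, which shares the capital bases shown above, had 0, 2 and 3 counts in FF ethanol and 8, 11 and 6 in FF 4OHT. Both symbols were thus low in the same FF ethanol libraries and higher in all FF 4OHT libraries, and the reads of both cannot be told apart. In Het cells Mir1291 went from 16, 5 and 8 counts to 4, 4 and 3, and Snora34 from 14, 4 and 8 to 0, 3 and 6. In WT cells Mir1291 had 4, 2 and 3 counts in ethanol and 5, 6 and 9 in 4OHT, while Snora34 had 6, 2 and 5 against 0, 1 and 3, so that they did not move alike there.

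Mir7-1, the precursor of miR-7a, lies in an intron of Hnrnpk, which encodes an abundant RNA-binding protein. Counts in FF cells were 7, 24 and 15 in ethanol and 74, 75 and 46 in 4OHT, against 5 to 27 in the libraries of the other lines. The level rose from 0.569 ± 0.284 to 2.43 ± 0.51 CPM (log2 fold change 2.08 ± 0.58, edgeR adjusted p = 0.0271). Hnrnpk had 985.0 ± 42.5 CPM in ethanol and 872.1 ± 51.6 CPM in 4OHT (log2 -0.18 ± 0.12, adjusted p = 0.367). Mir6924, in an intron of Acap1, a gene of an ARF GTPase-activating protein, rose from 4, 2 and 9 counts to 14, 24 and 16 (log2 1.79 ± 0.53, edgeR adjusted p = 0.0363), and Acap1 showed 0.05 ± 0.13 (adjusted p = 0.84). Of 18 alternative fits, Mir7-1 was not called in 5 and Mir6924 not in 7.

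A further 3 members rose together with the gene they overlap. Mir1949 lies within the snoRNA host gene Snhg4 and is itself annotated as a snoRNA. It had 18, 19 and 12 counts in FF ethanol and 46, 49 and 66 in FF 4OHT (log2 1.72 ± 0.40, edgeR adjusted p = 0.011), and Snhg4 rose by 1.05 ± 0.20 (adjusted p = 0.00275). Mir6516 lies in an exon of the snoRNA host gene Snhg20, listed in the table under its older symbol 2810008D09Rik. Its counts were 47, 36 and 14 in ethanol and 106, 127 and 119 in 4OHT (log2 1.83 ± 0.55, edgeR adjusted p = 0.0363), and the host rose by 1.05 ± 0.28 (adjusted p = 0.0228). Mir1894 meets a noncoding transcript model of Ppp1r10, a nuclear regulatory subunit gene of protein phosphatase, and went from 4, 7 and 8 counts to 22, 33 and 14 (log2 1.80 ± 0.53, edgeR adjusted p = 0.0338), with Ppp1r10 at 0.61 ± 0.20 (adjusted p = 0.0487).

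**Figure D1:**
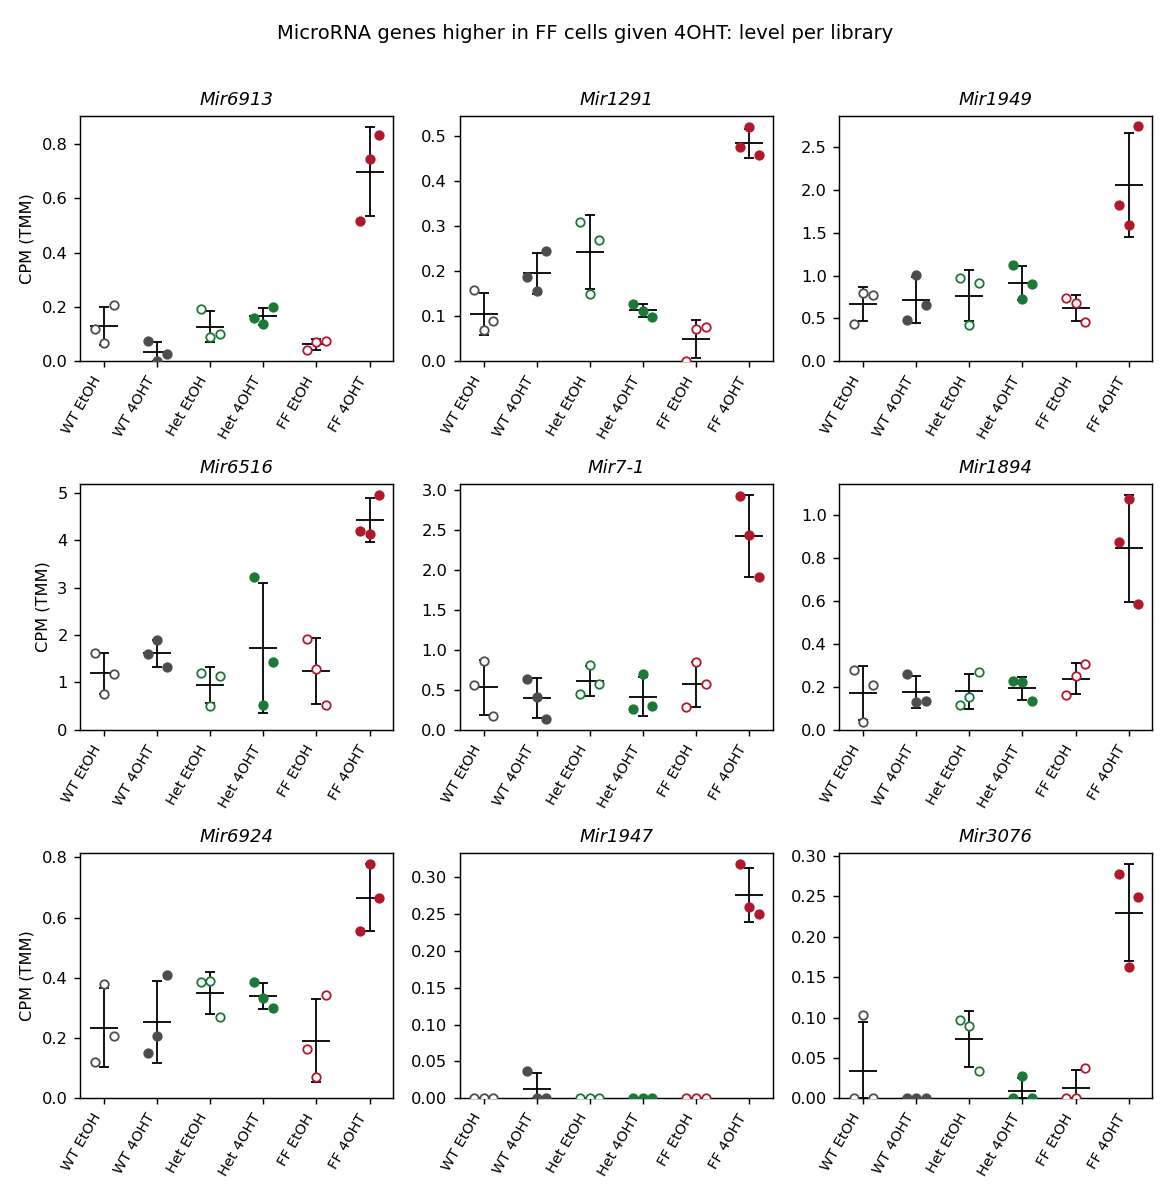
Level in CPM (TMM-scaled, linear axis from 0) of 7 called members and of Mir1947 and Mir3076, which were tested only with the milder filter, in each of 18 libraries. Points are libraries A to C from left to right, open for ethanol and filled for 4OHT, and bars show the mean and SD of each group with the lower end cut at 0. In every panel the 3 FF 4OHT libraries lie above the 3 FF ethanol libraries.

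Mir6236 is by far the most counted member, with 69.1% of all counts on the 74, and lies outside other annotated genes (chr9:110281287-110281409, plus strand). In FF cells it had 722, 934 and 1422 counts in ethanol and 1916, 4164 and 6017 in 4OHT. The level rose from 38.9 ± 13.2 to 153.9 ± 88.7 CPM (log2 1.98 ± 0.52, edgeR adjusted p = 0.0197), and the 4OHT libraries lay wholly above the ethanol libraries. Rn45s, the ribosomal RNA precursor, was set beside it as a reading of ribosomal RNA in each library.

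Rn45s had 111307, 107713 and 170319 counts in FF ethanol and 151043, 562846 and 989275 in FF 4OHT, with the same order of the 4OHT libraries as Mir6236, although it did not pass the test (log2 2.14 ± 0.72, edgeR adjusted p = 0.0586). Per 1000 Rn45s counts, Mir6236 had 6.49, 8.67 and 8.35 in FF ethanol and 12.7, 7.40 and 6.08 in FF 4OHT, so that the ratios of both groups overlapped. In Het cells the ratio was 26.6, 28.7 and 32.5 in ethanol and 13.3, 29.0 and 43.3 in 4OHT, above the WT range of 5.89 to 14.3 in 5 of 6 libraries. The library labelled Het_4OHT A held 463573 Rn45s counts against 70802 and 99738 in the other Het 4OHT libraries. Whether ribosomal RNA carried over in single libraries sets the level of Mir6236 was not tested. Leaving the Rn45s row out before scaling left the 8 FF calls in place. That step removes no reads counted on Mir6236, so it cannot decide this question.

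**Figure D2:**
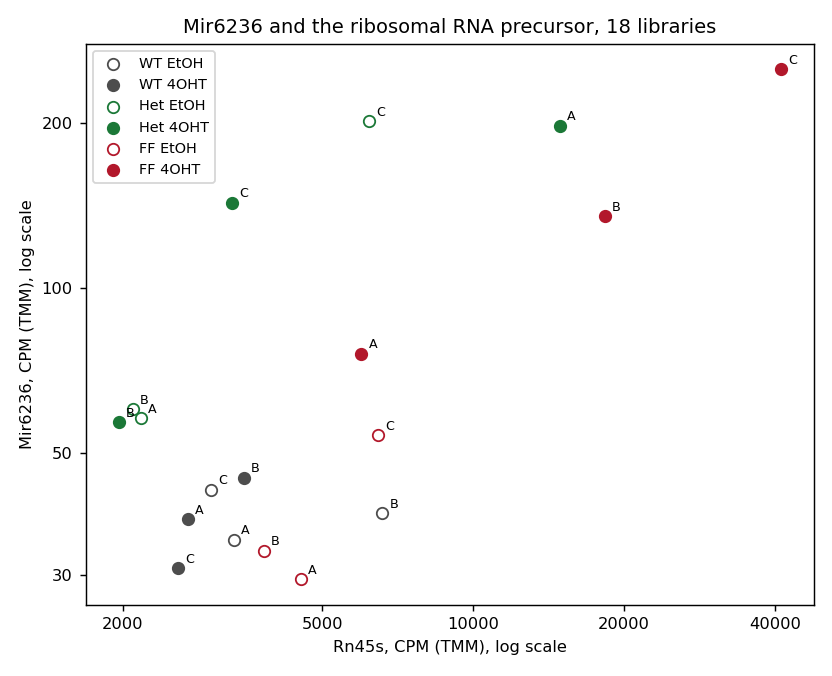
Mir6236 (vertical axis) against Rn45s (horizontal axis), both in CPM on log scales, for 18 libraries. Letters give the replicate, open points ethanol and filled points 4OHT. The FF 4OHT libraries extend to the upper right, and most Het libraries lie above WT libraries of similar Rn45s level.

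The filter of the test had kept 35 members out, so the fit was repeated with the selection rule itself as the filter, on 13738 genes and all 74 members. In FF cells 10 members were then higher and 0 lower, beside 4.87% of these genes higher. The additional members were Mir1947 and Mir3076, named after their values were seen. Both reach this filter only with the FF 4OHT libraries, so their values are given as a description. Mir1947, in an intron of the peptidase gene Lmln, had 0, 0 and 0 counts in FF ethanol and 8, 8 and 6 in FF 4OHT, and its only other count was 1 in the library labelled WT_4OHT A. With a floor of 3 counts over the group it was at least 7.39-fold higher in FF 4OHT. Lmln had 4.42 ± 0.53 CPM in ethanol and 5.41 ± 0.98 CPM in 4OHT. Mir3076, of whose 60 bases 1 overlaps a coding exon of Tkt, the transketolase gene of the pentose phosphate pathway, had 0, 0 and 1 counts in ethanol and 7, 5 and 6 in 4OHT. That is a ratio of 18.1 from the counts summed over each group, and it rests on 1 count in ethanol. Tkt had 1301 ± 235 CPM and 1124 ± 62 CPM.

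Libraries were also compared in CPM without a test, for all 74 members, where equal counts can separate through library size. In FF cells 21 members lay wholly higher in 4OHT than in ethanol and 1 wholly lower, Mir680-2, beside 18.6% and 20.3% of genes kept by the same rule. In Het cells 5 lay wholly higher and 3 wholly lower (2.31% and 2.81% of genes), and in WT cells 0 and 1 (2.98% and 2.07%). By position, the 21 comprised 9 of 27 intronic members, 6 of 33 over exons, 4 of 7 over snoRNAs or scaRNAs, Mir6236 and Mir7650. The median FF log2 change was 0.88 for the 27 intronic members, 0.53 for the 33 over exons and 1.72 for the 7 over snoRNAs or scaRNAs. Examples among the less counted intronic members are Mir7026 in Ep400, with 3, 2 and 3 counts in ethanol and 6, 10 and 8 in 4OHT, and Mir7027 in Ube3b, with 2, 2 and 2 against 7, 13 and 7. Neither passed the test (edgeR adjusted p = 0.186 and 0.169). Without the FF 4OHT libraries, 9 members would not meet the selection rule. They are Mir1947, Mir3058, Mir3076, Mir5121, Mir7026, Mir7027, Mir7030, Mir7237 and Mir93. The FF counts and medians by position are therefore a description.

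To compare each member with the gene it overlaps, the log2 ratio of both CPM values, each with 0.1 CPM added, was taken within each library for 65 members. In FF cells the ratio was higher in 4OHT for 52 of 65 pairs, with a median change of 0.42, in which the members' median was 0.43 and the genes' median -0.08. For 16 pairs all 4OHT ratios lay above all ethanol ratios, and for 1 pair below. The share of such ratios over all genes was not computed. By level alone, 18.6% of genes lay wholly higher in FF 4OHT. The 16 include Mir7666 to Fgf20, where the change of Fgf20 was 0.0 and the ratio followed the member alone. Among the 29 pairs with the member in an intron, 26 ratios were higher and 10 lay wholly above. The 65 pairs include the 9 members that meet the selection rule only with the FF 4OHT libraries. Of these, Mir1947, Mir7026, Mir7027 and Mir7237 are among the 10. The FF counts, also beside those of the other lines, are therefore a description. In Het cells 33 of 65 ratios were higher (median 0.002, 3 wholly above and 4 below), and in WT cells 33 (median 0.03, 1 above and 4 below).

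The largest ratio changes in FF cells among the named pairs were 2.49 for Mir6913 to Dohh, 2.17 for Mir7-1 to Hnrnpk and 1.93 for Mir1291 to Kansl2. The SDs of the ratio were 0.34 and 0.33 in ethanol and 4OHT for Mir6913, 0.60 and 0.22 for Mir7-1 and 0.35 and 0.07 for Mir1291. Mir1949 to Snhg4 changed by 0.52 and Mir6516 to its host by 0.86, and in both pairs the libraries of the 2 treatments overlapped. With 3 libraries against 3, an exact two-sided permutation test cannot go below p = 0.1, and the smallest value adjusted over the 65 pairs was 0.382 in FF. No pair therefore passed a threshold, and the pairs are described by size and overlap only.

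**Figure D3:**
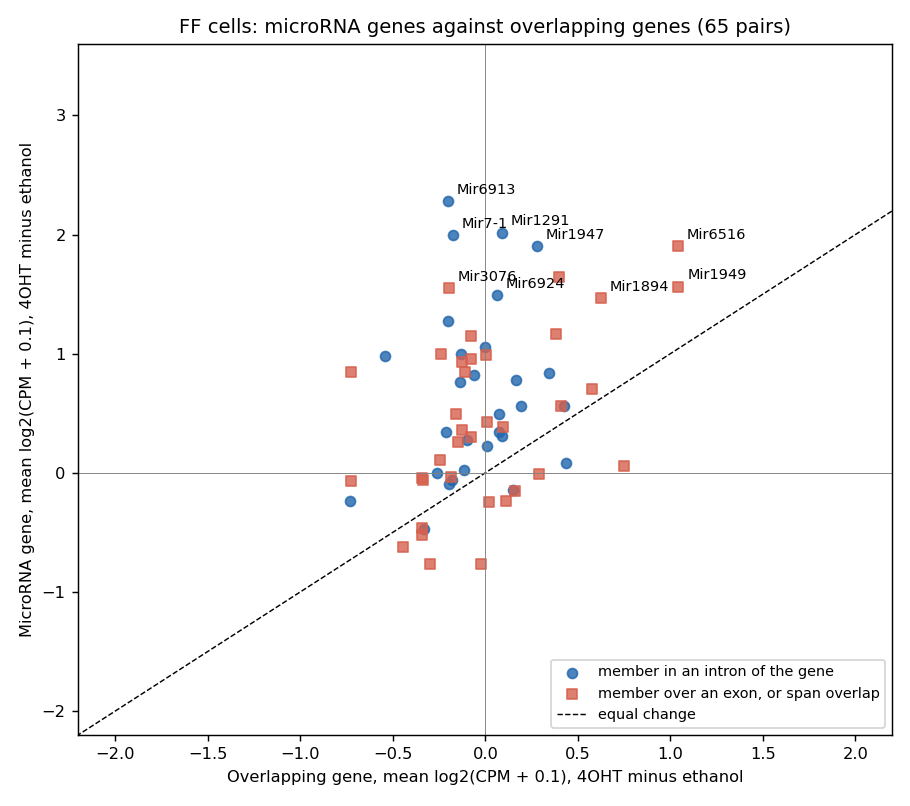
Change in FF cells of each member (vertical axis) against that of the gene it overlaps (horizontal axis), as the difference of mean log2(CPM + 0.1), 4OHT minus ethanol, for 65 pairs. Circles are members in introns, squares members over exons or within an annotated span, and the dashed line marks equal change. Mir6913, Mir7-1 and Mir1291 lie far above the line with their genes near 0, and Mir1949 and Mir6516 lie nearer to it with genes that also rose.

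**Figure D4:**
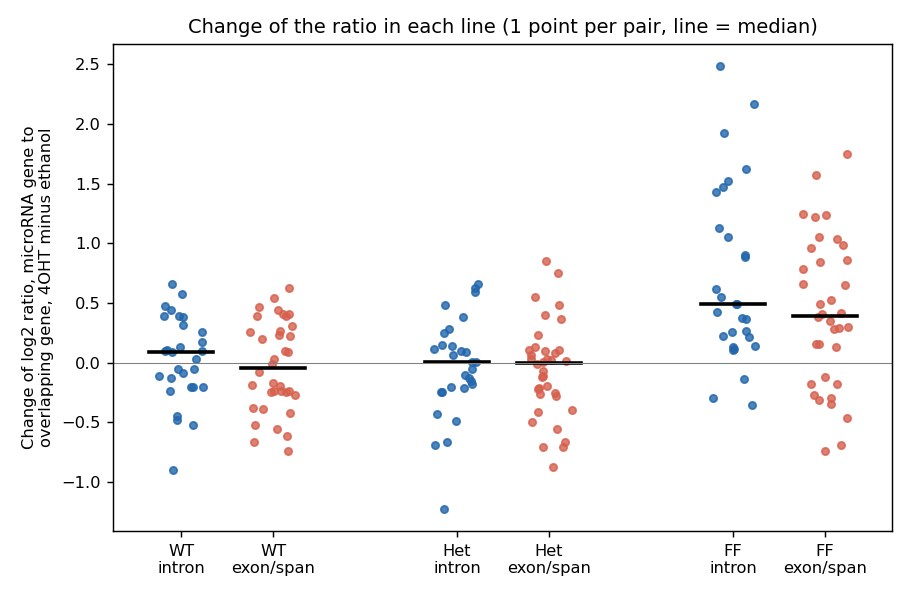
Change of the log2 ratio of a member to the gene it overlaps, 4OHT minus ethanol, for 65 pairs in each line, split into intronic members and the others. Each point is a pair, with random sideways spread, and the black line is the median. The FF medians are 0.49 for introns and 0.39 for the others, and the WT and Het medians lie between -0.05 and 0.09.

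Neither WT nor Het cells had a member called in their response to 4OHT. In the WT response edgeR called 0 of 39 members (0% of all genes). At an unadjusted p below 0.05 there were 0 higher and 2 lower, Mir3535 and Mir6913, without a share over all genes computed. For the Het response 0 of 39 were called (0.0156% of genes), with 0 at an unadjusted p below 0.05, and DESeq2 called 0 in both lines. A call in FF and none in another line does not show a difference, so the responses were compared directly.

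The FF response exceeded the WT response for 1 member, Mir6913, by 5.41 ± 0.98 on the log2 scale (edgeR adjusted p = 0.0111), beside 0.412% of genes higher and 1.89% lower. In WT cells Mir6913 had 3, 2 and 7 counts in ethanol and 2, 0 and 1 in 4OHT. Without the 2 displaced libraries the difference was 5.49 (adjusted p = 0.0465), and it was no longer called when WT_EtOH C was left out as well. Mir6913 entered this test through the FF 4OHT libraries, and with the milder filter, which it reaches without them, the difference was 5.41 (edgeR adjusted p = 0.0109). DESeq2 gave no adjusted p for 21 members here, Mir6913 among them. Mir7-1 differed by 2.52 ± 0.84 (edgeR adjusted p = 0.15) and Mir6236 by 2.02 ± 0.72 (adjusted p = 0.179).

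Against the Het response, the FF response was higher for 1 member, Mir1291, by 4.27 ± 0.80 (edgeR adjusted p = 0.0125), beside 0.404% of genes higher and 2.09% lower. It too entered through the FF 4OHT libraries, and with the milder filter the difference was 4.30 (edgeR adjusted p = 0.0133). In FF cells its 4OHT libraries lay above ethanol, and in Het cells below. Mir7-1 differed by 2.60 ± 0.83 (edgeR adjusted p = 0.118) and passed together with Mir1291 in the fit with letters as a replicate block. The fit to the compared groups alone called 0 members, and DESeq2 called Mir7-1 and gave no adjusted p for Mir1291. The FF comparisons share the FF libraries, so they are not separate evidence.

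Of the ethanol-treated lines, Het and FF were each compared with WT. Het against WT had 1 member called, Mir682, 2 without Het_EtOH A, 3 without Het_EtOH B and 4 without the 2 displaced libraries and Het_4OHT A. Mir682 had 1491, 467 and 823 counts in Het ethanol and 1366, 424 and 616 in Het 4OHT, and no count in the 6 WT libraries and the 3 FF ethanol libraries. The FF 4OHT libraries had 2, 0 and 2. With the floor of 3 counts it was at least 779-fold higher in Het than in WT ethanol cells and at least 901-fold higher in 4OHT, in a comparison in which 13.3% of genes were higher and 10.4% lower. It entered the test through the Het libraries alone, so its values are a description. The hairpin lies in an exon of the processed pseudogene Gm4149 (chr13:75645046-75645141, plus strand), and its mature strand is shown because reads of near-identical copies could be assigned to it.
miR-682 (Mir682): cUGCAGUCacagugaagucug
Genes of the table within 500 kb did not show such a gap: Ell2 had 3530 counts over the WT ethanol libraries, 3947 in FF and 4449 in Het, and Glrx 9846, 9771 and 10966. For FF against WT in ethanol 0 of 39 members were called (0% of genes), with 0 at an unadjusted p below 0.05 and 0 by DESeq2, which gave no adjusted p for 30 of them. The 0% of genes holds only with the 2 displaced libraries kept. Without them 0 of 42 members were called, beside 418 of 13041 genes higher and 196 lower.

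**Figure D5:**
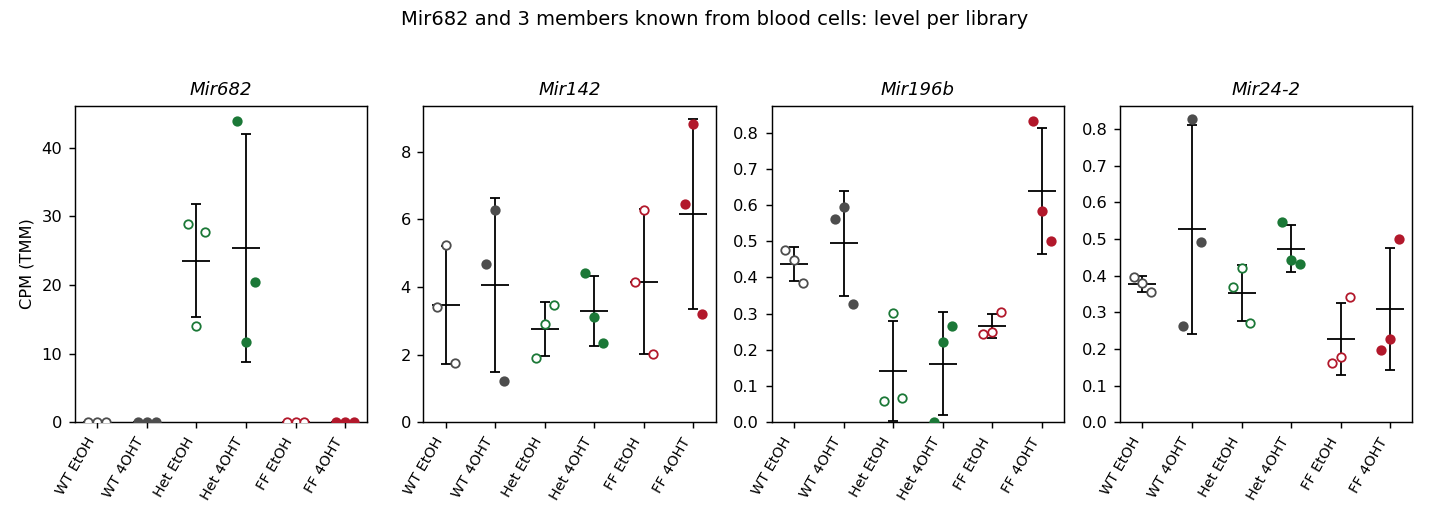
Level in CPM (linear axes from 0) of Mir682, Mir142, Mir196b and Mir24-2 in each of 18 libraries, drawn as points A to C from left to right with group mean and SD, the lower end cut at 0. Mir682 is high in the 6 Het libraries, and the Mir142 libraries of all groups overlap.

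The members best known from blood cells had no call. A list of haematopoietic microRNAs had 3 symbols among the members, Mir142, Mir196b and Mir24-2, while Mir223, Mir22, Mir150, Mir181a-1 and Mir144 had no counts and Mir155, Mir34a and Mir17 had 22, 29 and 21 over all libraries. Mir142, in the lincRNA Mir142hg and typical of blood cells, was the third most counted member, with 102, 177 and 53 counts in FF ethanol and 163, 271 and 77 in FF 4OHT (log2 0.57 ± 0.55, edgeR adjusted p = 0.546). Library C was the lowest in both groups, and also in both WT groups, with 59 and 45 counts.

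Mir196b, which lies beside Hoxa9 and meets a noncoding transcript model of it, had 6, 7 and 8 counts in FF ethanol and 21, 18 and 12 in FF 4OHT. The libraries did not overlap, yet the test was not passed (log2 1.25 ± 0.66, edgeR adjusted p = 0.235). Hoxa9, a homeobox gene that MLL fusions keep active, showed -0.26 ± 0.22 (adjusted p = 0.47). In Het ethanol Mir196b had 3, 10 and 2 counts against 12, 13 and 13 in WT ethanol (log2 -1.64 ± 0.70, edgeR adjusted p = 0.106), and Hoxa9 was lower there by -1.13 ± 0.22 (adjusted p = 0.00137). Mir24-2, of the miR-23a cluster, had 4, 5 and 9 counts in FF ethanol and 5, 7 and 12 in FF 4OHT (log2 0.42 ± 0.51, edgeR adjusted p = 0.648).

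Mir3064, over a coding exon of the RNA helicase gene Ddx5, varied from 20 to 123 counts within FF ethanol and from 63 to 168 in FF 4OHT, and the groups overlapped (log2 0.64 ± 0.67, edgeR adjusted p = 0.58). Mir8112, over an untranslated exon of Krcc1, had 46, 27 and 37 against 20, 26 and 28 counts (log2 -0.60 ± 0.36, adjusted p = 0.308). Mir3082, over a coding exon of the ubiquitin ligase gene Stub1, had 6, 11 and 20 against 15, 34 and 28 (log2 1.03 ± 0.48, adjusted p = 0.177). Mir25, with Mir93 a member of a cluster in Mcm7, a replication helicase gene, had 0, 14 and 12 against 14, 20 and 7 counts (log2 0.64 ± 0.65, adjusted p = 0.573), while Mcm7 fell by 0.73 ± 0.11 (edgeR adjusted p = 0.000629). Mir93 had 3, 7 and 2 against 3, 6 and 2 counts.

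The remaining members named by class were not called in FF cells. Mir8091, in the span of Lcor, had 14, 19 and 24 against 21, 22 and 14 counts, Mir3068, in an intron of Alkbh1 and annotated as a snoRNA, 3, 12 and 5 against 23, 19 and 4, and Mir703, opposite to Cfap299, 9, 10 and 4 against 8, 11 and 5. Mir684-1, opposite to Nup35, had 0, 4 and 4 against 4, 2 and 1, and Mir762, opposite to Bcl7c, 5, 2 and 0 against 3, 0 and 1. Mir680-2, outside other genes on the X chromosome, had 8, 8 and 7 against 6, 6 and 3, and its libraries did not overlap in CPM. Of the snoRNA-like members Mir1839 had 0, 3 and 4 against 1, 4 and 2 counts and Mir677 2, 2 and 4 against 3, 5 and 0, and Mir5121, which overlaps the C/D snoRNA Snord33 in Rpl13a, 2, 0 and 3 against 10, 9 and 3. Snord33 had 2, 8 and 6 against 16, 14 and 28 counts (edgeR log2 1.88 ± 0.60, adjusted p = 0.0486).

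Genes that make and use microRNAs were read from a list of 38, all tested. In FF cells 0 rose and 3 fell, beside 5.16% of all genes higher and 8.29% lower, with a list median of -0.05 beside -0.02 over all genes. Khsrp, an RNA-binding protein gene that aids processing of some precursors, stood at 268.2, 251.8 and 243.1 CPM in ethanol and 191.1, 182.7 and 170.0 in 4OHT (log2 -0.49 ± 0.10, edgeR adjusted p = 0.00355). Dgcr8, the partner of Drosha, went from 65.7, 76.2 and 68.4 to 48.6, 50.6 and 44.2 CPM (log2 -0.55 ± 0.12, adjusted p = 0.00819). Xpo5, the export factor, went from 179.3, 208.4 and 217.2 to 148.3, 150.3 and 130.5 CPM (log2 -0.50 ± 0.13, adjusted p = 0.0173). For these 3 genes no FF 4OHT library overlapped ethanol, and Xpo5 was not called without the 2 displaced libraries. Without FF_4OHT C only Khsrp was called.

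Drosha showed -0.38 ± 0.17 (edgeR adjusted p = 0.164), Dicer1 0.10 ± 0.14 (adjusted p = 0.713) and Ago2 -0.18 ± 0.40 (adjusted p = 0.818) in FF cells. In the Het and WT responses 0 of the 38 were called, and 0 were called in either comparison of the FF response with theirs. Between the Het and WT lines in ethanol 1 rose and 7 fell, beside 13.3% of all genes higher and 10.4% lower. Zcchc11, which encodes an enzyme that adds uridines to precursors, was higher by 2.81 ± 0.32 (edgeR adjusted p = 1.65e-05), and Lin28b, which encodes a protein that blocks maturation of the let-7 family, was lower by -4.45 ± 0.84 (adjusted p = 0.00112). Lin28a, Tarbp2, Ran, Xpo5, Srsf3 and Ncbp1 were the others that fell.

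The selection threshold left 13 members with a third-highest count of 5, among them Mir93, Mir130b and Mir3076, and 24 symbols just outside with 4, among them Mir16-1, Mir191, Mir19b-1, Mir20a, Mir34a, Mir210 and Mir221. Mir3076 had 32 counts over all libraries and Mir16-1 48.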

How the data were processed

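The authors deposited whole-number counts per gene symbol, not normalized, for 18 libraries. The submitters' processing notes name the mm10 build, featureCounts 1.5.2 and Subread, HISAT2 2.0.5, and CASAVA 1.4 with FastQC 0.11.7. The sources used here give no annotation, strand setting or treatment of multiply matching reads. From these counts, edgeR 4.0.16 (R 4.3.3) was run on all libraries with 6 group means, TMM scaling, a robust quasi-likelihood F test and a filter by filterByExpr with a minimum count of 10. Standard errors derive from F. Positions come from GENCODE M21 and RefSeq GRCm38.p6; 2 members had none. Alternatives were DESeq2 1.42.0, limma 3.58.1 voom, other scalings and filters, a replicate block, the compared groups alone, pseudocounts, and libraries left out; the fit without WT_EtOH C was added after seeing the data. The fit was tested on simulated data. Members and lists were chosen with earlier results of these data known. Named were Ddx41, called members, the 10 most abundant, 3 per overlap class, the haematopoietic list and, of the processing genes, the called and 4 core ones; other members are examples named after their values were seen. Correlations of libraries with the same letter were 0.476, 0.697 and 0.402 in Het, 0.167, 0.182 and 0.067 in FF, and 0.389, -0.023 and 0.25 in WT. In Het and FF each exceeded every correlation between different letters, and in WT that of letter B did not. Fold differences from summed counts, also those with a floor, leave out the spread between libraries.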

Additional observations from a re-analysis of the deposited data

Results flagged for a closer look

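The response of Mir6913 differed between lines: it was 5.41 higher on the log2 scale in FF than in WT cells (edgeR adjusted p = 0.0111). FF counts went up in all 3 libraries. WT counts overlapped but were lower on average in 4OHT, so the difference also holds a fall in WT at low counts. It was no longer called without FF_EtOH C, WT_4OHT C and WT_EtOH C. Mir1291 responded 4.27 higher in FF than in Het cells (edgeR adjusted p = 0.0125). Both members reached the filter of the test only in the FF 4OHT libraries. Mir3076 stood out because every FF 4OHT library lay above FF ethanol and every Het 4OHT library below Het ethanol in CPM (in Het 5, 3 and 1 counts in ethanol against 0, 1 and 0 in 4OHT, where the counts tie at 1). Its difference was 6.33 on the log2 scale in the fit with the milder filter and did not pass the test (edgeR adjusted p = 0.0808). Mir3076 meets that filter only with the FF 4OHT libraries, so its values are a description.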

How the results depend on the processing

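Depth limits most members, whose counts per library are often below 10. The FF response had 8 members called in the reported fit and between 2 and 5 with a library left out. Mir1291 and Mir6913 were called under all 18 alternatives. Mir1894 was not called under 9 of them, Mir6516 and Mir6924 under 7, Mir7-1 under 5, Mir6236 under 4 and Mir1949 under 1. With the letters as a replicate block, 2 members were called for FF minus WT (Mir6913, Mir7-1), 2 for FF minus Het (Mir1291, Mir7-1), 2 for Het against WT in ethanol (Mir682, Mir3091), and 5 processing genes; the block gave 10 in FF and changed no other count beyond 1.5 times. Under DESeq2 FF minus WT gave 0, with no adjusted p for 21 members including Mir6913, Het against WT 2 and the processing genes 5. Fits to the compared groups alone gave 2 for FF minus WT, 0 for FF minus Het and 2 for Het against WT. Het against WT also gave 2 under DESeq2 size factors, library size alone, the 5-count filter and without Rn45s, 4 without FF_EtOH C, WT_4OHT C and Het_4OHT A, and 1 to 3 with a library left out. Without FF_EtOH C, WT_4OHT C and WT_EtOH C, FF minus WT gave 0. Processing genes numbered 1 to 3 with a library left out; the 2 interaction counts stayed at 1, and the Het, WT and FF-against-WT counts at 0.

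Pairs with wholly higher ratios in FF numbered 19 to 24 with a library left out, since fewer libraries overlap less easily, and wholly lower ones 1 to 3, with 3 and 0 at pseudocounts of 0.5 and 0.02 CPM. In Het these ranges were 4 to 6 and 4 to 8, and in WT 1 to 6 and 5 to 8. In WT 2 pairs were wholly higher at either pseudocount and 6 without FF_EtOH C and WT_4OHT C, and 2 wholly lower at 0.02 CPM. Small FF changes reversed: Mir703 (0.03) to -0.28, -0.27 and -0.28 in the 3 fits without FF_EtOH C and WT_4OHT C (alone, with Het_4OHT A, with WT_EtOH C) and to -0.28, -0.02 and -0.14 without FF_EtOH C, FF_4OHT A or FF_4OHT B; Mir8091 to 0.002, 0.012, 0.003 and 0.006 under DESeq2 size factors, library size, DESeq2 and the compared groups alone, to 0.19, 0.19 and 0.19 in those 3 fits, and to 0.19 and 0.11 without FF_EtOH C or FF_4OHT C; and Mir24-2 (0.42) to -0.08 without FF_4OHT C. Across all libraries left out in turn, Mir703 ranged from -0.281 to 0.221, Mir8091 from -0.158 to 0.185 and Mir24-2 from -0.078 to 0.821. The cause was not tested.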

Other observations

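Mir703, opposite to Cfap299, had 143 counts in the library labelled Het_4OHT A and 15 and 22 in the other Het 4OHT libraries, and 48, 31 and 20 in Het ethanol against 12, 7 and 11 in WT ethanol. Mir425 had 6, 8 and 21 counts in FF ethanol and 4, 3 and 9 in FF 4OHT, against 24, 28 and 28 in Het 4OHT. Mir3960, over Cdk9, had 25 counts in WT_EtOH C and 1 and 2 in the other WT ethanol libraries, and its neighbour Mir2861 had 7, 5 and 5 there. Mir1839, annotated as a scaRNA, had 21 counts in Het_EtOH A and 0 to 8 in the other 17 libraries. Mir6935, over a transcript model of the actin gene Actg1, lay wholly higher in 4OHT in both FF (7, 9 and 5 against 32, 16 and 12 counts) and Het (7, 4 and 7 against 16, 10 and 10), and neither passed the test (edgeR adjusted p = 0.106 and 1).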
